A study of Mus musculus with 12 samples.

Results

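Adipocytes made in culture were compared as a whole with fat tissue. The cultured side was the mean of 3 groups, each weighted equally, with 3 arrays in each and 9 arrays in all, and the tissue side was 3 arrays, so that all 12 arrays of the study entered the comparison. The first cultured group was made from the mouse fibroblast line 3T3-L1, which divides without limit and is widely used as a model of fat cell formation, the second from primary mouse embryonic fibroblasts (PMEF), a mixed cell population taken from embryos, and the third from mouse embryonic stem (ES) cells. All 3 had been differentiated to adipocytes. The tissue is labelled eWAT, which commonly stands for white fat of the epididymal pad, and was taken from healthy wild-type mice. The sources used here give no strain, age, sex, culture medium or day of differentiation. The design text calls the arrays of each group biological triplicates, and it does not say whether tissue was pooled or whether the arrays of a culture came from separate differentiations. The errors and p-values below therefore measure the spread between these arrays.

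White adipocytes store triglyceride in a lipid droplet, release fatty acids by lipolysis and secrete hormones such as leptin and adiponectin. In tissue they lie among blood vessels, nerves, stromal progenitors and immune cells, all of which give RNA to a tissue sample. A culture receives its lipids, hormones and amino acids from the medium and is grown without blood vessels. The question put by the title of the study is how the culture models compare with the tissue, and the values below describe what the 3 cultures had in common against it.

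All values are log2 intensities as deposited, and differences are the cultured mean minus eWAT on that scale, with the standard error of limma's moderated test. A gene counted as called where its p, adjusted by Benjamini-Hochberg over all 19938 genes, was under 0.05, and rose and fell are used only for called genes. Median levels over genes were 6.11 to 6.12 on the 3T3-L1 arrays and 6.31 to 6.35 in the other groups. Correlations over genes, which are no independent replicates, were 0.992 to 0.997 for arrays of a group, 0.922 to 0.965 between cultures and 0.899 to 0.940 between a culture and eWAT. The first eWAT array stood apart from the other two. Its summed macrophage marker level was 13.1 against 13.8 and 14.1, its summed mast cell and granulocyte level 9.76 against 11 and 10.8, and its summed thermogenic gene level 13.4 against 12.8 and 12.8. Results that it moved by over 1.5 times, or whose call it decided, are given with and without it. Fat cell genes marked all 4 groups: Fabp4, the fatty acid binding protein of adipocytes, lay between 12.36 and 12.55 on the cultured arrays and at 12.59, 12.62 and 12.58 in eWAT. In eWAT, 14 genes of epididymis and testis, organs that adjoin this fat pad, lay below the all-gene median of 6.31, and 1 of them, Adam28, was called, at -0.23, and lost the call without the first or the third eWAT array.

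Of the 19938 genes, 6355 (31.9%) were higher and 4293 (21.5%) lower in the cultured mean, 53.4% in all. The balance turned round with the size of the difference. Among genes called and at least 2-fold apart on the mean, 602 were higher and 1180 lower. A stricter definition of a difference common to culture asked also that all 9 cultured arrays lie on one side of all 3 eWAT arrays. That held for 2382 higher genes (11.9%) and 2249 lower genes (11.3%). Asking in addition that each culture's mean be at least 2-fold from eWAT left 133 higher genes (0.667%) and 711 lower genes (3.57%). These were 22.1% of the 2-fold higher and 60.3% of the 2-fold lower genes. At 4-fold in every culture the numbers were 17 higher and 270 lower, and at 16-fold 1 higher and 41 lower.

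**Figure D1:**
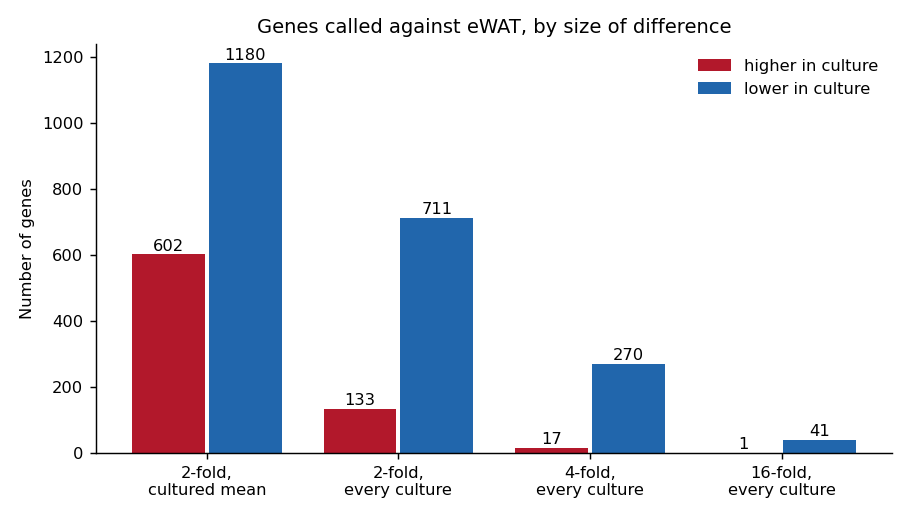
Number of genes called higher or lower in cultured adipocytes than in eWAT, at 4 sizes of difference. Bars give counts for 2-fold on the cultured mean (602 higher, 1180 lower) and for 2-fold, 4-fold and 16-fold in every culture with no overlap of arrays (133 and 711, 17 and 270, 1 and 41); lower genes outnumbered higher genes at each size.

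The lower genes were genes that reached dim values in culture. The 711 had a median level of 7.83 in eWAT and 5.38 in culture, and for 539 of them (75.8%) the cultured mean lay under the median level of all genes. The 133 higher genes had medians of 6.50 in eWAT and 8.36 in culture. The cultures also differed among themselves. By the F test of the same fit, 11777 genes (59.1%) differed among the 3 cultures, and so did 118 of the 133 higher genes (88.7%) and 375 of the 711 lower genes (52.7%). Of the sum of squares between the 4 groups over all genes, 43.9% lay between culture and tissue and 56.1% among the cultures. The first share rests on 1 contrast, and the second on the spread of 3 culture means, with more degrees of freedom. The shares therefore do not show that cultures differed more from each other than from tissue. Median array correlations were 0.949 between cultures and 0.931 between a culture and eWAT, with overlapping ranges. Because genes differed among the cultures, the standard errors describe the mean of these 3 cultures and not cultures in general. With each culture taken as 1 sample, 3 culture means against 3 eWAT arrays, 760 of the 19938 genes were called higher and 1237 lower. Of the 133 and 711 genes, 121 and 658 were still called. Both sets had been chosen for 2-fold differences in every culture, which favours that call, so these numbers are a description and no separate support. The test of 3 culture means is given below as the one with each culture as 1 sample.

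Ranked by the smallest of its 3 culture differences, Elovl3 was the gene highest above tissue. It encodes an elongase of very long chain fatty acids known from brown fat, sebaceous gland and liver. Its level lay between 10.48 and 10.82 on the 9 cultured arrays, with a median of 10.66, and was 6.60, 5.32 and 5.03 in the 3 eWAT arrays. The cultured arrays stood close together and far above all of the tissue, of which the first array was the highest. The difference was 5.03 ± 0.23, 32.8-fold, with an adjusted p of 6.04e-10 by limma's moderated test. By culture it was 5.09, 4.95 and 5.06 in the order 3T3-L1, PMEF and ES, and the adjusted p among the cultures was 0.909. Without the first eWAT array the difference was 5.51 ± 0.10.

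Other genes far above tissue in every culture had roles in growth, the cell surface and the matrix, and unlike Elovl3 they differed among the cultures. Peg10, an imprinted gene derived from a retrotransposon and active in placenta, lay between 10.45 and 12.07 in culture with a median of 11.05, against 7.87, 7.70 and 7.64 in eWAT. No cultured array came near the tissue, and the ES arrays were the highest. Dlk1, the imprinted transmembrane protein that marks preadipocytes and holds back adipogenesis, lay between 9.17 and 11.35 with a median of 10.42, against 6.42, 6.89 and 6.95. The PMEF arrays were the highest here and the 3T3-L1 arrays the lowest, though still above all of the tissue. The differences were 3.42 ± 0.07 for Peg10 and 3.57 ± 0.09 for Dlk1, with adjusted p-values of 4.02e-13 and 3.14e-12 by limma's moderated test. Capn6, a calpain without protease activity, rose by 3.84 ± 0.09, Olr1, a receptor for oxidised low density lipoprotein, by 3.57 ± 0.20, and Ptn, the growth factor pleiotrophin, by 3.47 ± 0.10. Sema3a, a secreted guidance protein, rose by 2.92, Mmp11, a stromal metalloprotease, by 3.10, and Ddah1, which breaks down methylated arginines, by 2.84. Boc, a hedgehog co-receptor, rose by 2.36, and Sptlc3, a subunit of the enzyme that starts sphingolipid synthesis, by 2.83.

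Some higher genes had rises of similar size in the 3 cultures. Such genes were named for a small range among the culture means. Their evenness, and a high p among cultures, are therefore descriptions. By the F test, 118 of the 133 genes 2-fold higher in every culture still differed among the cultures. Slc19a2, a thiamine transporter, was 2.13, 2.18 and 2.02 above eWAT in 3T3-L1, PMEF and ES adipocytes, with an adjusted p among cultures of 0.324. Its cultured arrays ran from 8.26 to 8.69 with a median of 8.5, and the eWAT arrays were at 6.25, 6.54 and 6.32, so the groups were clearly apart. Qsox1, which forms disulfide bonds in secreted proteins, was 2.29, 1.91 and 2.01 above eWAT, and Maoa, the monoamine oxidase of the mitochondrial outer membrane, 2.36, 2.02 and 1.86. Tmem97, a sterol-responsive membrane protein, was 2.55, 1.87 and 2.35 above eWAT. Cdkn2a, the locus of the cell cycle inhibitors p16 and p19ARF, was 2.49, 2.05 and 1.79 above. Slc38a4, an amino acid transporter, was 2.34, 2.42 and 2.74 above.

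**Figure D2:**
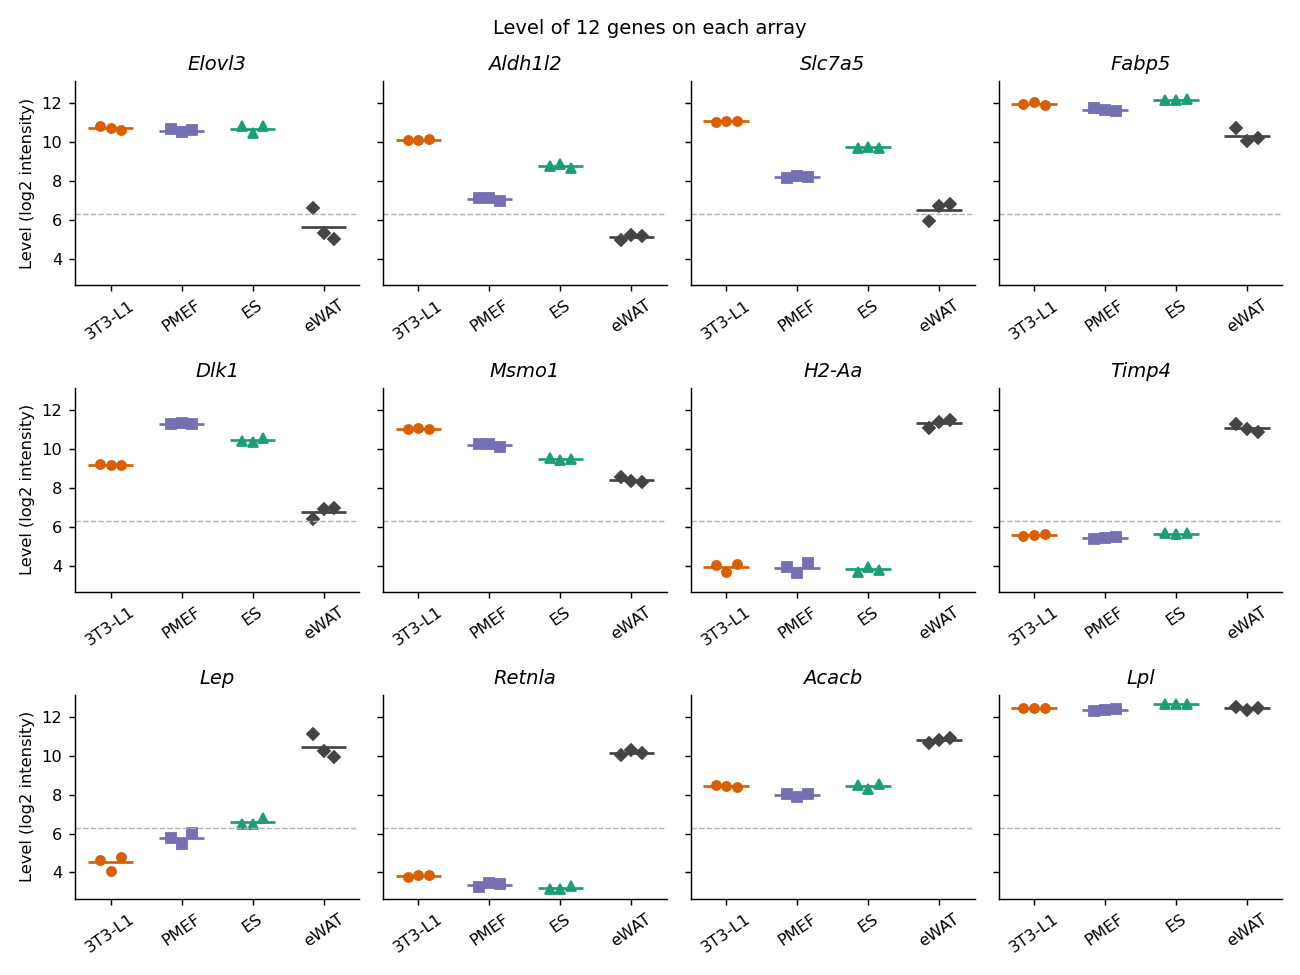
Level of 12 genes on each of the 12 arrays, on the log2 scale, by group. Points are arrays and short lines group means, and the dashed line marks the median level of all genes, 6.31; the cultured arrays of Elovl3 lie between 10.48 and 10.82 and those of H2-Aa between 3.61 and 4.16, each clear of all 3 eWAT arrays, while Lpl overlaps between culture and tissue.

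Genes of the amino acid stress response and one-carbon metabolism rose. When amino acids run short or protein folding fails, the kinases that sense it lead to translation of ATF4, which turns on genes for amino acid uptake, serine and glycine synthesis and mitochondrial folate enzymes. Of 23 genes measured, 20 rose and 1 fell, with a median of 1.02, against a median of 0.06 over all genes. The size differed between cultures, with list medians of 2.08, 0.44 and 0.97 for 3T3-L1, PMEF and ES. With each culture as 1 sample, 5 were called higher and 1 lower.

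Aldh1l2, the mitochondrial folate dehydrogenase, lay between 6.98 and 10.17 in culture with a median of 8.78, against 4.95, 5.25 and 5.17 in eWAT. Slc7a5, the light chain of the large neutral amino acid transporter, lay between 8.17 and 11.11 with a median of 9.73, against 5.93, 6.72 and 6.85. In both genes the 3T3-L1 arrays were highest and the PMEF arrays lowest, and no cultured array overlapped the tissue. The differences were 3.54 ± 0.07 for Aldh1l2 and 3.18 ± 0.14 for Slc7a5, with adjusted p-values of 2.13e-13 and 3.76e-10 by limma's moderated test. Slc7a11, the cystine transporter, lay between 5.47 and 8.62 with a median of 7.51, against 4.24, 4.33 and 4.21, and rose by 2.97 ± 0.08. All of these held with each culture as 1 sample. Mthfd2, a mitochondrial folate enzyme, rose by 2.95, Ddit3, the stress transcription factor CHOP, by 2.54, and Trib3, a pseudokinase that binds AKT, by 2.22, and these 3 lost the call in that test. Mthfd2 was 4.34, 1.35 and 3.17 above eWAT in 3T3-L1, PMEF and ES adipocytes. Atf4 itself rose by 1.5, and Asns, asparagine synthetase, by 0.93, of which PMEF adipocytes had 0.06. Cbs, which makes cystathionine from homocysteine, was the 1 member that fell, by 0.50.

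Promoters of this list were searched for the core of the C/EBP-ATF response element, TGATGNAA, to which ATF4 binds with a C/EBP partner, on both strands from 250 bases before to 50 bases after the start in the RefSeq annotation of GRCm38.p6. It was present in 6 of the 19 members with a promoter in the table (Trib3, Asns, Chac1, Slc7a11, Fgf21 and Vldlr), against 3.62% of the 15614 measured genes with a promoter and 3.97% of all 32851 promoters. The 250 bases before the start are shown for Slc7a11 (chr3:50443614-50443863, minus strand) and Asns (chr6:7693210-7693459, minus strand), which differ in their rise in PMEF adipocytes. Each runs 5′ to 3′ along the gene, with matches on either strand in capitals. Slc7a11 holds 2 matches, on opposite strands, and Asns holds 1, near the start. Among genes with a promoter, the element was present in 4.08% of those 2-fold higher in every culture and in 5.33% of those 2-fold lower. The list was drawn up from genes of this response, so its share is no measure of the rise in culture. A match is a description of the letters and not evidence of binding.
Slc7a11: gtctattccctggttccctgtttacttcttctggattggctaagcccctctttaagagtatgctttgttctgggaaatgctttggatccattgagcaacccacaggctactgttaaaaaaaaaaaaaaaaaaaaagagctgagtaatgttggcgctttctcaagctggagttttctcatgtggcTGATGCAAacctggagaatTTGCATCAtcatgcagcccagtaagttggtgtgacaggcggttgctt
Asns: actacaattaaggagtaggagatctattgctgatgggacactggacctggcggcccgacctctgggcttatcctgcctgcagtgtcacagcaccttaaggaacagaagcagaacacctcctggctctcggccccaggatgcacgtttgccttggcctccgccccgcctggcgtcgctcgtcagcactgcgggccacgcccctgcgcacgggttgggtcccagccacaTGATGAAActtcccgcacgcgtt

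Genes of cholesterol synthesis and uptake rose. Cells make cholesterol from acetyl-CoA through mevalonate and squalene, and the factor SREBP2 raises the whole pathway when sterols are low. Of 20 genes measured, 17 rose and 3 fell, with a median of 0.70 and medians of 0.75, 0.83 and 0.46 in 3T3-L1, PMEF and ES adipocytes. The test with each culture as 1 sample called 7 higher, and by limma 0 lower (2 at an unadjusted p under 0.05). Msmo1, a sterol demethylase late in the pathway, lay between 9.43 and 11.09 in culture with a median of 10.25, against 8.58, 8.33 and 8.30 in eWAT. Sqle, squalene epoxidase, lay between 9.11 and 10.53 with a median of 9.33, against 8.04, 8.21 and 7.69. Both genes were clear of the tissue on every cultured array, and both were highest in 3T3-L1. The differences were 1.84 ± 0.07 and 1.70 ± 0.09, with adjusted p-values of 5.73e-11 and 2.15e-09 by limma's moderated test. Cyp51, lanosterol demethylase, rose by 1.46, Hsd17b7, a sterol ketoreductase, by 1.47, and Stard4, a sterol carrier, by 1.22, of which Cyp51 and Hsd17b7 lost the call with each culture as 1 sample. Insig1, which holds the SREBP factors in the endoplasmic reticulum and is itself raised by them, fell by 0.27. Pmvk, phosphomevalonate kinase, fell by 0.38, and Sc5d, a sterol desaturase, by 0.24 (-0.16 without the first eWAT array).

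Genes of the cell cycle and DNA replication rose. Of 25 measured, 22 rose and 1, Pcna, fell (a call lost without the second eWAT array), with a median of 0.67 and medians of 0.58, 0.74 and 0.58 in 3T3-L1, PMEF and ES adipocytes. With 1 sample per culture, 9 were called higher. Cdk1, the kinase that drives mitosis, lay between 7.40 and 8.02 in culture with a median of 7.70, against 5.93, 6.08 and 6.06 in eWAT. Ccne1, cyclin E1 of the entry into S phase, lay between 7.71 and 8.82 with a median of 8.19, against 6.46, 6.22 and 6.23. Tissue arrays of both genes sat near the middle of all genes, and every cultured array was above them. The differences were 1.66 ± 0.07 and 1.95 ± 0.06, with adjusted p-values of 1.18e-10 and 1.76e-11 by limma's moderated test. Rrm2, a ribonucleotide reductase subunit, rose by 1.13, Ccna2, cyclin A2, by 1.1 and Mcm2, part of the replicative helicase, by 1.17, most in 3T3-L1 (2.54) and least in PMEF adipocytes (0.47).

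The CCAAT box, the site of the factor NF-Y, was searched for in the same promoters as CCAAT on both strands. It was present in 16 of 16 cholesterol genes with a promoter, in 16 of 19 cell cycle genes and in 14 of 19 amino acid stress genes, against 41.7% of measured genes and 37.4% of all promoters. The sterol response element core TCACNCCAC was present in 1 of the 16 cholesterol genes, against 1.40% of measured genes and 1.24% of all promoters. TTTGAA, the core of the cell cycle homology region, was present in 9 of the 19 cell cycle genes. Its share was 17.3% of measured genes and 17.9% of all promoters. Among genes 2-fold higher in every culture and with a promoter, CCAAT was present in 49.0%, TCACNCCAC in 0% and TTTGAA in 22.4%. Among such lower genes the shares were 36.6%, 1.52% and 18.9%. The 250 bases before the start are shown for Msmo1 (chr8:64733579-64733828, minus strand) and Cdk1 (chr10:69352913-69353162, minus strand), a member of each list with 3 CCAAT matches, in capitals, chosen after the search. In Msmo1 all 3 read CCAAT along the gene, and in Cdk1 all 3 read in the reverse sense.
Msmo1: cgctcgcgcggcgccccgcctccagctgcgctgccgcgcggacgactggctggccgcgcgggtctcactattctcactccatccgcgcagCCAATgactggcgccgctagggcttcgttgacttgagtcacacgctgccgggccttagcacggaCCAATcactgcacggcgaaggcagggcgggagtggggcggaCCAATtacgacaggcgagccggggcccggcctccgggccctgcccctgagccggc
Cdk1: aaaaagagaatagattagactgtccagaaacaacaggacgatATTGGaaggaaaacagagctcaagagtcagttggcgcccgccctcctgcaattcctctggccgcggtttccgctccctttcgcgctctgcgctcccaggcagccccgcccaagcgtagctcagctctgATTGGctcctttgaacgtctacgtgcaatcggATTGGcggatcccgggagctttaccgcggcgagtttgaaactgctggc

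Lists of the machinery that makes, folds and degrades proteins rose by smaller amounts. Of 12 ribosomal protein genes 10 rose and 0 fell, with a median of 0.47, and of 17 genes of ribosome biogenesis and translation 15 rose and 0 fell, with a median of 0.55. Of 18 proteasome genes 14 rose and 0 fell, with a median of 0.33, and of 18 endoplasmic reticulum chaperones 15 rose and 1, Xbp1, fell, with a median of 0.41. Rps18, of the small ribosomal subunit, rose by 0.79, Psma5, of the proteasome core, by 0.74, and Nop2, a nucleolar RNA methylase, by 1.17. The chaperone median was 0.59, -0.12 and 0.87 in the order 3T3-L1, PMEF and ES. With each culture as 1 sample, limma called 2 ribosomal protein genes and 1 proteasome gene higher. It called 0 chaperones and 0 genes of ribosome biogenesis, of which 6 and 8 were higher at an unadjusted p under 0.05.

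**Figure D3:**
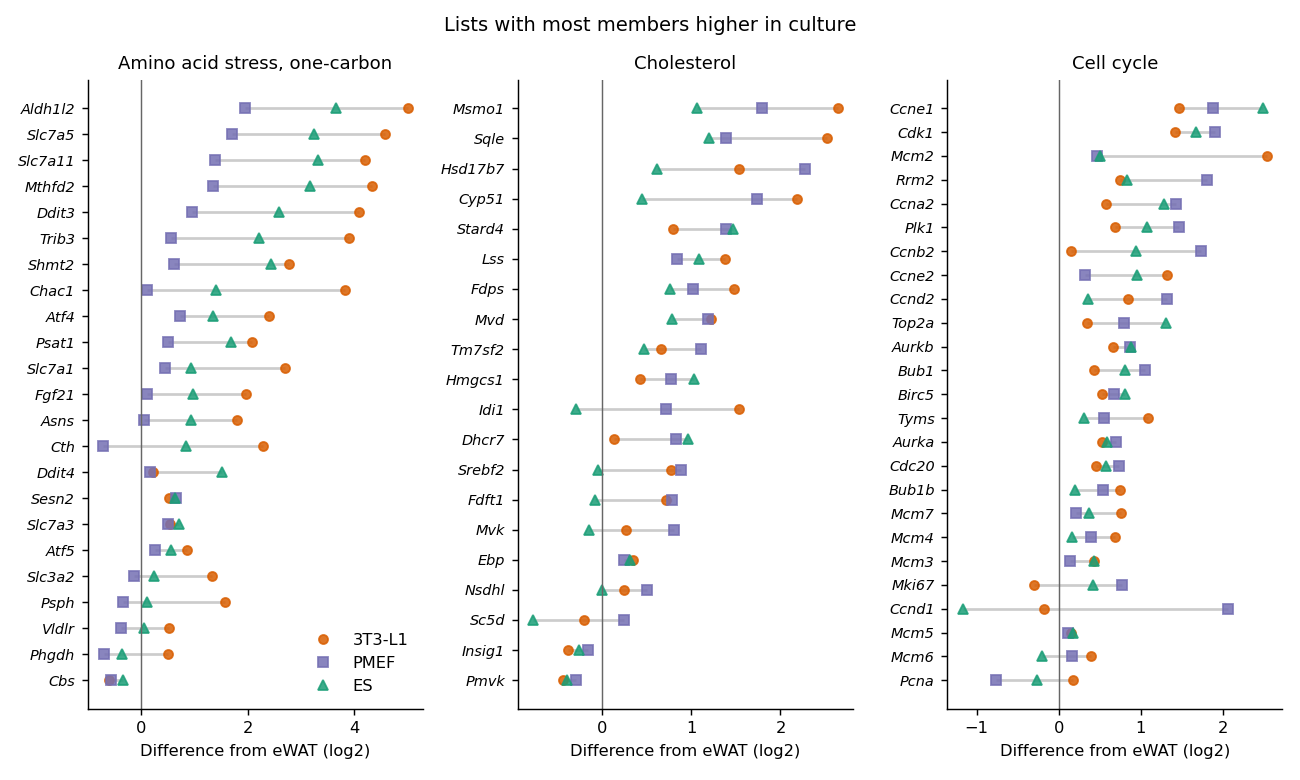
Difference from eWAT, on the log2 scale, of each gene of 3 lists in each culture: amino acid stress response and one-carbon metabolism (23 genes), cholesterol synthesis and uptake (20 genes) and cell cycle and DNA replication (25 genes). Points right of 0 are higher than eWAT; the list medians are 2.08, 0.44 and 0.97 for amino acid stress, 0.75, 0.83 and 0.46 for cholesterol and 0.58, 0.74 and 0.58 for the cell cycle in 3T3-L1, PMEF and ES adipocytes.

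Genes of the fat cell itself ranged from near the tissue level to far from it. Lpl, lipoprotein lipase, lay between 12.33 and 12.68 in culture with a median of 12.47, against 12.53, 12.35 and 12.44 in eWAT, and was not called (difference 0.06 ± 0.05, adjusted p = 0.377 by limma's moderated test). With arrays centred on their medians it was at 0.13 and called (adjusted p = 0.0493 by the same test). Gpd1, which makes glycerol phosphate, Dgat1 and Agpat2, which assemble triglyceride, and Cidec, a droplet protein, were not called either, at -0.03, -0.01, 0.13 and 0.08. They were chosen after their values were seen, as were Pnpla2, the first triglyceride lipase, at -0.23 and Scd1, the main stearoyl-CoA desaturase, at -0.22, which fell. Fabp4 differed by -0.14 and Cd36, the fatty acid translocase, by -0.15, and both lost the call without the first or without the third eWAT array. Fabp4 lost it also without the second eWAT array or the third 3T3-L1 array. With quantile normalization both were at -0.08 and not called, as with arrays centred on their medians and with each culture as 1 sample. Adipoq, adiponectin, fell by 0.55 ± 0.06 and Pparg, the nuclear receptor that directs fat cell formation, by 0.58 ± 0.07. Adipoq was 0.95, 0.46 and 0.23 below eWAT in 3T3-L1, PMEF and ES adipocytes. Both lost the call with each culture as 1 sample.

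Among 14 hormones and secreted products 5 rose and 8 fell, where 31.9% of all genes rose and 21.5% fell. Their median was -0.40, and with each culture as 1 sample 1 was called higher and 4 lower. Lep, the satiety hormone leptin, lay between 4.10 and 6.78 in culture with a median of 5.78, against 11.14, 10.23 and 9.96 in eWAT. The 3T3-L1 arrays were the lowest, the ES arrays the highest, and none approached the tissue. The difference was -4.82 ± 0.21, 28.3-fold lower, with an adjusted p of 3.89e-10 by limma's moderated test, and -4.48 without the first eWAT array. Nrg4, a secreted ligand of ERBB4, lay between 7.32 and 8.08 with a median of 7.84, against 10.03, 9.92 and 10.07, and fell by 2.24 ± 0.07. Retnla, which macrophages of tissue also secrete, fell by 6.69 ± 0.07, and Sfrp5, a Wnt antagonist, by 1.22. Rbp4, retinol binding protein, was 6.85 and 3.14 below eWAT in 3T3-L1 and PMEF adipocytes and 0.47 above it in ES adipocytes. Agt, angiotensinogen, lay between 9.44 and 11.60 with a median of 10.63, against 8.16, 8.27 and 7.95, and rose by 2.45 ± 0.08. It was the member higher than tissue on every cultured array.

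Of 18 adipogenic transcription factors 2 rose and 13 fell, with a median of -0.53, and with each culture as 1 sample 1 was called higher and 7 lower. Ebf2, a factor of progenitors and of brown and beige fat cells, lay between 5.86 and 6.57 in culture with a median of 6.10, against 8.69, 8.90 and 8.95 in eWAT. Mlxipl, the glucose-responsive factor ChREBP, lay between 7.12 and 8.87 with a median of 8.13, against 10.16, 10.26 and 10.11. For Ebf2 the 3 cultures lay at one low level, whereas for Mlxipl they ran from 3T3-L1 at the bottom to ES at the top. The differences were -2.70 ± 0.08 and -2.14 ± 0.07, with adjusted p-values of 6.95e-12 and 1.27e-11 by limma's moderated test. Klf15, a partner of PPARG late in differentiation, fell by 1.40. Cebpa fell by 1.15 on the mean but was 2.87 below eWAT in 3T3-L1 and 0.18 above it in ES adipocytes. Klf5, an early adipogenic factor, rose by 1.03.

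Genes of fatty acid and triglyceride synthesis fell. Adipocytes make fatty acids from citrate through ACLY, acetyl-CoA carboxylase and FASN, and esterify them to glycerol phosphate. Of 24 genes 18 fell and 3 rose, with a median of -1.01 and medians of -1.14, -0.82 and -0.84 in 3T3-L1, PMEF and ES adipocytes. With each culture as 1 sample, 10 were called lower and 1 higher. Acacb, the acetyl-CoA carboxylase at the mitochondrion, lay between 7.90 and 8.55 in culture with a median of 8.41, against 10.66, 10.83 and 10.92 in eWAT. Elovl6, the elongase that makes stearate, lay between 8.19 and 9.80 with a median of 9.30, against 11.74, 11.75 and 11.84. Both were lower than in eWAT on all 9 cultured arrays, and the tissue arrays were close together. The differences were -2.51 ± 0.07 and -2.67 ± 0.06, with adjusted p-values of 5.97e-12 and 5.69e-13 by limma's moderated test. Pck1, the enzyme of glyceroneogenesis, lay between 6.96 and 11.17 with a median of 7.66, against 12.14, 12.11 and 12.29. It was 4.79, 4.52 and 1.03 below eWAT in 3T3-L1, PMEF and ES adipocytes, and like Pnpla3, a lipogenic target of ChREBP and SREBP1 (5.10, 2.49 and 1.71 below), it lost the call with each culture as 1 sample. Mogat1, a monoacylglycerol acyltransferase, fell by 2.33. Fads2, the first desaturase of polyunsaturated fatty acids, went the other way, between 10.07 and 10.68 with a median of 10.28, against 8.38, 8.71 and 8.51. Its rise was 1.80 ± 0.07, with an adjusted p of 1.99e-10 by limma's moderated test.

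All 12 genes of lipolysis and adrenergic signalling fell, with a median of -1.11 and medians of -2.01, -1.0 and -0.45 in 3T3-L1, PMEF and ES adipocytes. Taking each culture as 1 sample left 3 of them called. Npr1, the receptor for atrial natriuretic peptide, lay between 5.68 and 6.11 in culture with a median of 5.95, against 8.77, 8.56 and 8.65 in eWAT. Hcar1, the lactate receptor that restrains lipolysis, lay between 6.58 and 8.34 with a median of 6.68, against 10.46, 10.25 and 10.29. Npr1 was even across the cultures, while the ES arrays of Hcar1 stood above those of the other 2 cultures. The differences were -2.75 ± 0.07 and -3.19 ± 0.07, with adjusted p-values of 3.14e-12 and 4.16e-13 by limma's moderated test. Mgll, monoglyceride lipase, fell by 1.81 and was 3.58, 0.91 and 0.93 below eWAT in the 3 cultures in that order. Hcar2, the niacin receptor, fell by 1.79 and Npr3, the clearance receptor for natriuretic peptides, by 1.64.

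**Figure D4:**
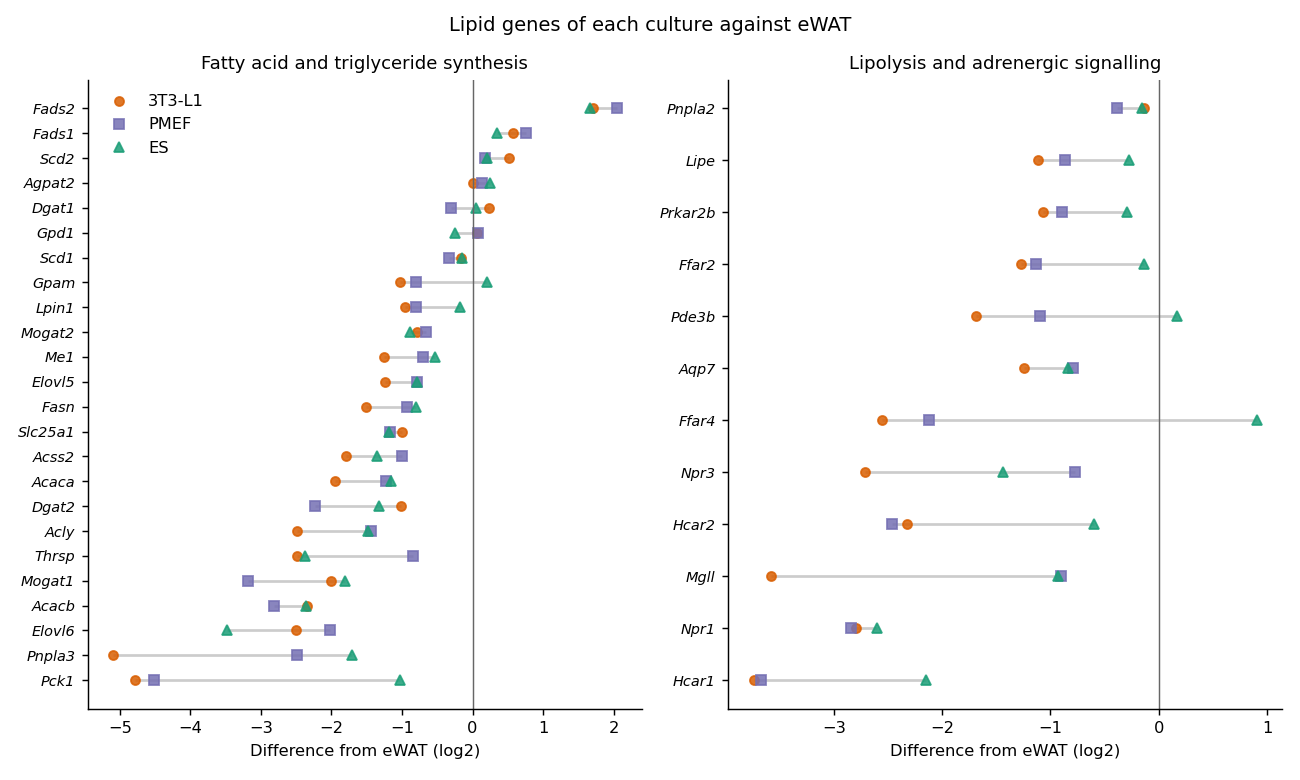
Difference from eWAT, on the log2 scale, of each gene of fatty acid and triglyceride synthesis (24 genes) and of lipolysis and adrenergic signalling (12 genes) in each culture. Points left of 0 are lower than eWAT; Acacb lies at -2.35, -2.81 and -2.36 in 3T3-L1, PMEF and ES adipocytes, Gpd1 at 0.07, 0.08 and -0.25, and Fads2 at 1.70, 2.05 and 1.66.

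Other metabolic lists moved less. Of 19 genes of branched-chain amino acid breakdown 14 fell and 3 rose, with a median of -0.38 and medians of -0.09, -0.90 and -0.21 in 3T3-L1, PMEF and ES adipocytes. Taking each culture as 1 sample left 4 called lower. Ivd, isovaleryl-CoA dehydrogenase, fell by 1.54 and Mccc2, a subunit of methylcrotonyl-CoA carboxylase, by 1.07. Of 16 genes of insulin signalling and glucose uptake 10 fell and 3 rose, with a median of -0.53, and 3 were called lower with 1 sample per culture. Slc2a4, the insulin-responsive transporter GLUT4, fell by 0.85 ± 0.07 and Slc2a1, the basal transporter GLUT1, rose by 2.11 ± 0.06. Slc2a1 lay between 8.82 and 11.37 in culture with a median of 10.56, against 8.06, 8.15 and 8.26 in eWAT. Every cultured array was above the tissue, PMEF least and ES most. Both transporters lost the call with each culture as 1 sample. Of 28 respiratory chain subunits 8 rose and 5 fell, where 31.9% of all genes rose and 21.5% fell. Their median was 0.06, the same as over all genes. Of 19 fatty acid oxidation genes 4 rose and 9 fell, with a median of -0.18. Of 15 lipid droplet proteins 7 rose and 6 fell, with a median of 0.08. Plin1, the perilipin that guards the droplet, fell by 0.73 ± 0.06. Median centring called 13 respiratory chain subunits higher and 3 lower, leaving out the PMEF group 18 and 1, and taking each culture as 1 sample none (3 and 1 at an unadjusted p under 0.05 by limma). Without the first eWAT array 9 respiratory chain subunits rose and 2 fell, and 6 fatty acid oxidation genes rose and 7 fell, with a median of -0.06. The medians of these last 3 lists are small, and those of the lipid droplet and respiratory chain lists changed sign or reached 0 under another setting.

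Among 12 genes of fatty acid uptake and binding 4 rose and 6 fell, where 31.9% of all genes rose and 21.5% fell. Their median was -0.04, and it became 0.03 with arrays centred on their medians. With 1 sample per culture 1 was called in each direction. Fabp5, a fatty acid binding protein of skin and macrophages that adipocytes also make, lay between 11.59 and 12.21 in culture with a median of 11.97, against 10.72, 10.06 and 10.20 in eWAT. All cultured arrays were above all of the tissue, in contrast to Fabp4. The rise was 1.63 ± 0.11, with an adjusted p of 2.17e-08 by limma's moderated test. Gpihbp1, by which capillary endothelium holds lipoprotein lipase, lay between 5.69 and 5.97 with a median of 5.77, against 8.96, 9.04 and 9.07. It fell by 3.23 ± 0.06, evenly across the cultures (adjusted p = 0.17 among them), while Lpl itself was not called.

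Of 18 thermogenic and beige fat genes 10 fell and 5 rose, with a median of -0.55, where 21.5% of all genes fell and 31.9% rose. Cidea, a droplet protein of brown and beige fat, lay between 5.89 and 7.51 in culture with a median of 7.44, against 10.90, 10.32 and 10.42 in eWAT. Prdm16, the coregulator of brown and beige identity, lay between 5.52 and 6.05 with a median of 5.76, against 7.73, 7.42 and 7.17. Both were lower on every cultured array. They fell by 3.58 ± 0.10 and 1.64 ± 0.12, with adjusted p-values of 6.2e-12 and 4.49e-08 by limma's moderated test. Ucp1, the uncoupling protein of heat production, was at 10.05, 8.05 and 7.45 in eWAT and between 4.62 and 7.74 in culture with a median of 6.72. The third tissue array lay inside the cultured range, and the first stood well above the other two. Its difference was -2.19 ± 0.38 with all arrays and -1.43 without the first eWAT array. Ppargc1a, the coactivator of mitochondrial genes, rose by 1.41, and Cox7a1, a respiratory subunit of muscle and brown fat, by 0.99. Elovl3, described above, is also a member of this list. Without the first eWAT array the list median was -0.38, and with each culture as 1 sample 4 members were called lower and 1 higher.

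The lists with the lowest medians were those of class II, macrophage and endothelial genes. Tissue holds capillary endothelium, resident macrophages, mast cells and lymphocytes, and antigen-presenting cells load peptides on class II molecules. Of 22 endothelial genes 21 fell and 0 rose, with a median of -3.17, of 24 macrophage genes 23 fell and 0 rose, with a median of -3.60, and all 6 class II genes fell, with a median of -5.08. With each culture as 1 sample 20, 21 and 6 were still called. Of 19 lymphocyte and natural killer genes 15 fell and 1, Gata3, rose, with a median of -0.91, and of 12 mast cell and granulocyte genes 9 fell and 0 rose, with a median of -1.08 (-1.37 without the first eWAT array). With each culture as 1 sample 11 and 4 of them were called. In whole samples, fewer cells of a type and less RNA per cell cannot be told apart.

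H2-Aa, the class II alpha chain, was the gene with the largest fall in every culture. Its level lay between 3.61 and 4.16 on the cultured arrays, with a median of 3.93, and was 11.10, 11.37 and 11.49 in eWAT. The cultures sat together among dim genes and the tissue among bright ones. The difference was -7.44 ± 0.12 with an adjusted p of 6.97e-14 by limma's moderated test, and the adjusted p among cultures was 0.731. No detection call tells signal from background at such dim cultured levels, so the size of this and the other deepest falls can be read only as a lower bound. H2-Eb1, a beta chain, lay between 5.82 and 6.21 with a median of 6.11, against 10.06, 10.31 and 10.55, and fell by 4.26 ± 0.10. H2-Ab1 fell by 6.05 and Cd74, the invariant chain that escorts class II molecules, by 5.89. H2-DMa, which edits the bound peptides, fell by 2.17.

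The Y box of class II promoters, searched for as CTGATTGG on both strands, was present in 2 of the 3 members with a promoter in the table (H2-Aa and H2-Eb1). It was present in 5.44% of measured genes and 4.10% of all promoters, and it contains the CCAAT box in the reverse sense. It was also present in 8 of 19 amino acid stress genes and 6 of 16 cholesterol genes, lists of which most members rose. Among genes with a promoter it was present in 12.2% of those 2-fold higher in every culture and in 4.38% of those 2-fold lower. The promoters of H2-Aa (chr17:34287824-34288073, minus strand) and H2-Eb1 (chr17:34305617-34305866, plus strand) are shown because these are the members with a match, given in capitals. Each is the 250 bases before the start from RefSeq, GRCm38.p6.
H2-Aa: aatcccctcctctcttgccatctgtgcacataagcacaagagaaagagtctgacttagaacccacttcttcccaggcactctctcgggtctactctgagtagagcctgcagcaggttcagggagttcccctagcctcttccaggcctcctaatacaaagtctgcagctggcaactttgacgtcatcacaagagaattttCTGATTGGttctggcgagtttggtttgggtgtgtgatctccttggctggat
H2-Eb1: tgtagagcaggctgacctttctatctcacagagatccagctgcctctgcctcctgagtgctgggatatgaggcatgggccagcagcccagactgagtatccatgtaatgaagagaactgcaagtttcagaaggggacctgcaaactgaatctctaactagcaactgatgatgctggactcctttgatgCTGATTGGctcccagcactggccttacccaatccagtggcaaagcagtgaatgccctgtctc

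Endothelial genes had list medians of -3.44, -2.78 and -3.15 in 3T3-L1, PMEF and ES adipocytes. Of the 22, 12 (54.5%) differed among the cultures, near the 59.1% of all genes. Emcn, the endothelial sialomucin endomucin, lay between 3.65 and 4.79 in culture with a median of 4.08, against 10.31, 10.16 and 9.54 in eWAT. Cdh5, the cadherin of endothelial junctions, lay between 4.86 and 6.67 with a median of 5.55, against 11.19, 10.97 and 10.94. Neither overlapped, and the ES arrays were the highest of the cultures for Cdh5. The differences were -5.82 ± 0.15 and -5.29 ± 0.09, with adjusted p-values of 2.43e-12 and 1e-13 by limma's moderated test. Pecam1, the platelet endothelial adhesion molecule, fell by 4.31, Ptprb, a receptor phosphatase of vessels, by 4.69, and Lyve1, of lymphatic endothelium and some macrophages, by 4.31. Adgrl4, a vascular adhesion receptor, fell by 6.11. The summed level of the endothelial list was 13.6 to 13.8 in eWAT and 9.86 to 10.9 in culture.

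Macrophage genes were low in 3T3-L1 and ES adipocytes, and some were less low in PMEF adipocytes. Adgre1, the F4/80 antigen, lay between 3.87 and 5.13 in culture with a median of 4.22, against 8.78, 9.73 and 10.24 in eWAT. Mrc1, the mannose receptor, lay between 3.92 and 5.68 with a median of 4.28, against 9.11, 9.90 and 10.16. The first tissue array was the lowest of its group in both and still above every cultured array. The differences were -5.18 ± 0.22 and -5.10 ± 0.17, with adjusted p-values of 2.25e-10 and 2.89e-11 by limma's moderated test, and without the first eWAT array they were -5.58 and -5.40. Lyz2, lysozyme of myeloid cells, was 6.36, 3.42 and 6.67 below eWAT in 3T3-L1, PMEF and ES adipocytes, and it differed among them (adjusted p = 1.13e-08). Cd209d and Cd209f, lectins of a family of closely similar genes whose probes may share signal, fell by 5.32 and 6.07. F13a1, a coagulation subunit of tissue macrophages, fell by 5.30 and Ccl6, a myeloid chemokine, by 5.10. The summed macrophage level was 13.1 to 14.1 in eWAT and 9.94 to 11.1 in culture.

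Among mast cell genes Cpa3, the mast cell carboxypeptidase, was at 7.72, 9.39 and 9.17 in eWAT and between 3.58 and 3.92 in culture with a median of 3.73. The first tissue array was again the lowest, and no array overlapped. Its difference was -5.02 ± 0.25, and -5.54 without that array. Mcpt4, a mast cell protease, fell by 4.44. Nkg7, a granule protein of natural killer cells, fell by 3.03, and Ccl5, a chemokine of T cells, by 2.30. Of 87 genes measured in the endothelial, macrophage, class II, lymphocyte, mast cell, and erythrocyte and platelet lists, 55 were among the 711 genes at least 2-fold lower in every culture, and 656 of the 711 were outside those lists. The part of other tissue cells in the falls of fat cell genes was not tested.

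Of 19 complement genes 17 fell and 2 rose, with a median of -2.64, and 12 were called lower with each culture as 1 sample. Some of these, such as C1qb and C1qc of the first component, are macrophage products and fell by 5.15 and 4.66. C7, of the membrane attack complex, lay between 4.44 and 5.50 in culture with a median of 4.89, against 9.15, 10.50 and 10.37 in eWAT, and fell by 5.01 ± 0.22. Masp1, a protease of the lectin pathway, rose by 0.91. Of 23 chemokines and inflammatory genes 15 fell and 4 rose, with a median of -0.94, and 17 fell and 3 rose without the first eWAT array. With 1 sample per culture 7 were called lower. Lcn2, lipocalin 2, was 5.46 and 3.22 above eWAT in 3T3-L1 and ES adipocytes and 0.70 below it in PMEF adipocytes. Of 15 smooth muscle and pericyte genes 11 fell and 2 rose, with a median of -1.19, and 6 were called lower with 1 sample per culture. Rgs5, a pericyte signalling regulator, lay between 4.51 and 6.09 with a median of 4.89, against 10.28, 9.80 and 9.91, and fell by 4.82 ± 0.10. Mcam, an adhesion molecule of pericytes and endothelium, fell by 2.55 and Cspg4, the pericyte proteoglycan NG2, by 2.30.

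Of 15 preadipocyte and stromal progenitor genes 11 fell and 4 rose, with a median of -0.77, and with 1 sample per culture 3 were called lower and 1 higher. Pi16, of the most primitive stromal progenitors, lay between 5.25 and 5.90 in culture with a median of 5.41, against 7.84, 7.98 and 8.12 in eWAT, and fell by 2.50 ± 0.08. Dpp4, of the same cells, fell by 2.46. Dlk1 went the other way, as described. Timp4, an inhibitor of metalloproteases secreted in fat, lay between 5.38 and 5.67 with a median of 5.59, against 11.27, 11.05 and 10.90. The cultured arrays spanned a narrow band far below the tissue. The difference was -5.52 ± 0.07, 46-fold lower, with an adjusted p of 8.23e-15 by limma's moderated test. Pon1, a lipoprotein esterase of liver and serum, fell by 4.87 ± 0.09, and Acsm3, a medium chain acyl-CoA synthetase, by 4.93 ± 0.16.

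Other lower genes, named for a small range among the culture means, were even across the cultures. Sncg, gamma-synuclein, a protein of adipocytes and neurons, lay between 8.19 and 8.54 in culture with a median of 8.40, against 11.09, 11 and 10.93 in eWAT, and was 2.59, 2.64 and 2.62 below eWAT in 3T3-L1, PMEF and ES adipocytes. Myct1, of endothelium, differed by -2.77, -2.77 and -2.80, Bcl6b, a transcription factor of endothelium, by -2.52, -2.54 and -2.58, and Ccr2, a monocyte chemokine receptor, by -2.85, -2.91 and -2.92. Alas2, the haem enzyme of red cell precursors, differed by -2.48, -2.48 and -2.54. For all of these but Sncg, culture levels lay under the median of all genes.

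For other lists the mean over cultures hid opposite values. Of 29 genes of matrix and matrix remodelling outside the collagens 18 rose and 9 fell, but its medians by culture were -1.13, 1.53 and 0.27 in the order 3T3-L1, PMEF and ES, and with each culture as 1 sample limma called 0 higher (2 at an unadjusted p under 0.05) and 2 lower. Of 14 imprinted growth genes 11 rose and 0 fell, with medians of -0.66, 2.50 and 1.29, and 2 were called with 1 sample per culture. Without the first eWAT array 11 of these genes rose and 1 fell. Igf2, the imprinted growth factor, was 0.22 below eWAT in 3T3-L1 and 4.23 and 4.50 above it in PMEF and ES adipocytes. Of 19 collagens 12 rose and 5 fell, of which 1 in each direction was called with 1 sample per culture. Col12a1, which decorates collagen fibrils, was 1.01, 5.73 and 3.40 above eWAT in the same order. Of 14 mesothelial genes 10 rose and 0 fell, with medians of -0.01, 1.23 and 1.13, and limma called 0 with each culture as 1 sample (4 higher at an unadjusted p under 0.05). Upk1b, a tetraspanin of urothelium and mesothelium, was 0.27 below eWAT in 3T3-L1 and 4.13 and 2.94 above it in the other cultures.

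Of 19 interferon-stimulated genes 9 fell and 0 rose, with medians of -1.81, 0.08 and 0.14 for 3T3-L1, PMEF and ES. The first eWAT array was low for this list, at a summed level of 12 against 12.9 and 12.9, and without it 13 fell and the median moved from -0.54 to -0.89. Psmb8 and Psmb9, subunits of the immunoproteasome, fell in all 3 cultures, by 1.72 and 1.41 on the mean, and kept the call with each culture as 1 sample. Of 36 Hox genes, the transcription factors of body position, 11 fell and 9 rose, where 21.5% of all genes fell and 31.9% rose. Hoxc10 lay between 4.15 and 6.76 in culture with a median of 4.58, against 7.80, 7.69 and 7.77 in eWAT, and was 3.14, 1.04 and 3.41 below eWAT. With arrays centred on their medians 17 Hox genes were called higher and 10 lower. Of 17 circadian clock genes 10 rose and 5 fell, with a median of 0.19, and 16 differed among the cultures (59.1% over all genes). With 1 sample per culture 1 was called in each direction. Nr1d1, the repressor REV-ERB alpha, was lower by 1.21, 1.24 and 1.13 in 3T3-L1, PMEF and ES adipocytes, and Ciart, a clock repressor, was higher by 3.11, 1.43 and 2.19. The sources used here give no hour of collection.

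Against the same eWAT arrays, 30.8% of genes were called higher and 22.5% lower in 3T3-L1, 24.7% and 21.6% in PMEF, and 28.8% and 20.9% in ES adipocytes. In 2174 genes (10.9%) a culture was called higher than eWAT and another called lower, and in 157 both differences were at least 2-fold. For 52 of the 157 the mean over cultures was not called. The 10 genes with the widest opposition in both directions were low in 3T3-L1 and high in PMEF adipocytes. Grb10, an imprinted inhibitor of insulin receptor signalling, was 3.43 below eWAT in 3T3-L1 and 2.28 and 0.83 above it in PMEF and ES adipocytes, and its mean of -0.10 was not called (with arrays centred on reference genes it was at -0.17 and called). Peg3, an imprinted zinc finger gene, was 3.52 below and 2.18 and 1.41 above, with a mean of 0.02 that was not called, but was -0.33 and called without the first eWAT array. Lum, lumican of collagen matrix, was 3.87 below, 2.01 above and 0.59 below. Sfrp1, a secreted Wnt inhibitor, was 2.59 below and 4.89 and 3.65 above.

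**Figure D5:**
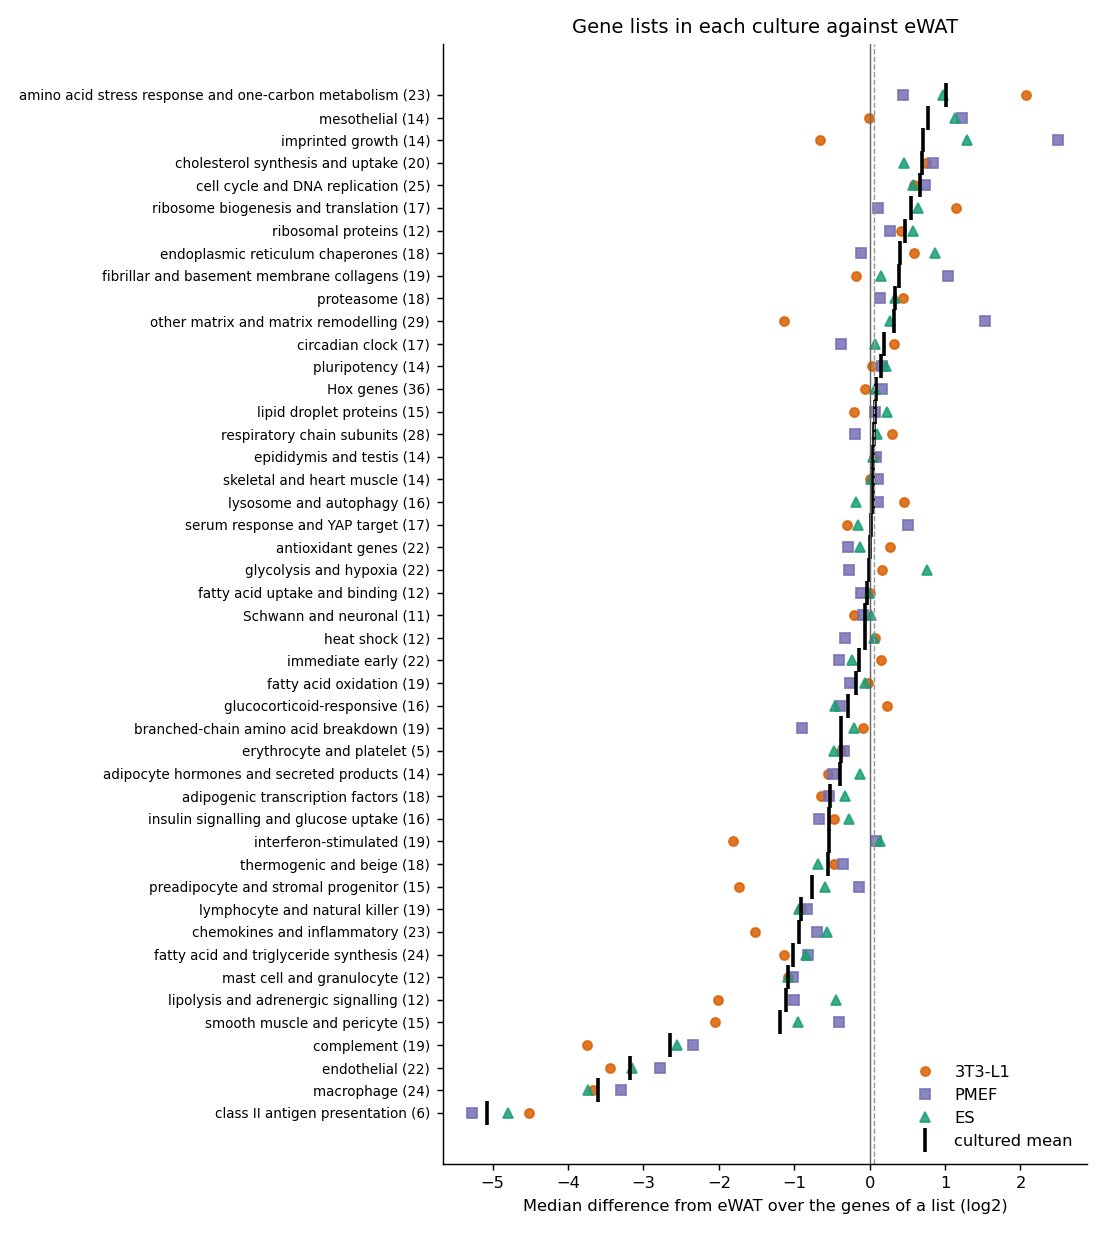
Median difference from eWAT, on the log2 scale, of each of 46 gene lists in 3T3-L1, PMEF and ES adipocytes. Coloured points are the 3 cultures, black ticks the median of the differences of the cultured mean and the dashed line the median of all genes, 0.06; class II, macrophage and endothelial lists lie far left in every culture, while matrix and imprinted growth genes lie left of 0 in 3T3-L1 and right of it in PMEF.

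Single genes set 1 culture apart from the others and from tissue. Xist, expressed from the inactive X chromosome, was at 10.06 ± 0.01 (SD, n = 3) in PMEF adipocytes and at 4.05 and 4.03 in 3T3-L1 and ES adipocytes, and its difference of 2.12 on the mean rests on PMEF. Of 4 sex-linked genes measured, Xist rose, and 3 of the Y chromosome, Eif2s3y, Kdm5d and Uty, fell. The medians over all 4 were -3.78, -0.56 and -0.07 in 3T3-L1, PMEF and ES adipocytes. With each culture as 1 sample limma called 0 of them (1 lower at an unadjusted p under 0.05). Hprt, a purine salvage enzyme, was 5.14 below eWAT in ES adipocytes and 0.73 and 0.49 above it in 3T3-L1 and PMEF. Of 14 pluripotency genes 2 rose, a count that other settings moved to between 0 and 8 (8 with arrays centred on their medians, 6 with quantile normalization or without the first PMEF array, 4 without the third 3T3-L1 array, 3 without the first eWAT array and 0 of the 2 left when dim genes were removed). Sox2 was 1.62 above eWAT in ES adipocytes, at 5.63, under the median of all genes. Of 14 skeletal and heart muscle genes 4 rose and 0 fell, where 31.9% of all genes rose and 21.5% fell. Tnnt2, the heart troponin T, rose most, by 0.60. Without the first eWAT array 2 rose and 1 fell. Centring on reference genes gave 1 in each direction.

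Genes just inside and just outside the limit of 2-fold in every culture lay close together. Plag1, with a smallest difference of 1.001, Pwwp3b and Col12a1 were just inside on the higher side, and Irx2, with 0.999, Slc38a2 and Tnfaip2 just outside. On the lower side Dmtn, Fxyd2 and Slc25a1, the citrate carrier, were just inside, and Zhx2, Hp and Spaar just outside. These genes were chosen after their values were seen.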

How the data were processed

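RNA extracted with TRIzol was amplified and labelled as biotinylated cDNA with the WT Expression kit, per the labels' protocols, and hybridised to Affymetrix arrays, 3 per group. The authors deposited log2 intensities of 35556 probe sets per array, already normalized. The sources used here name neither the method nor the log base. The base was read from the values, 1.11 to 13.48, since natural logarithms would reach 714401, above the scanner limit of 65535. The values were used as deposited, so any error of that normalization remains in them, and no detection calls were available. The number of arrays limits the precision.

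Probe sets with exactly 1 gene symbol (21789, against 1621 with several and 12146 with none) were kept, and the brightest stood for a gene, which left 19938 genes, 999 of them with more than 1 probe set. Entrez IDs matched RefSeq for 21698 probe sets. Limma 3.58.1 in R 4.3.3 fitted the 4 group means to 12 arrays (8 residual and 4.88 prior degrees of freedom). The contrast was the mean of the 3 cultures minus eWAT, with Benjamini-Hochberg adjustment over all genes and calls at 0.05. The 3 comparisons of a single culture share the same eWAT arrays. On simulated data the fit recovered 87% of 100 genes changed by 0.5 on the log2 scale, 97% of 100 changed by 1 and 100% of 100 changed by 2. There were 14 false calls among the unchanged genes. The simulated cultures did not differ from each other, so the simulation does not measure false calls where cultures differ. Figures were drawn with matplotlib 3.10.9 in Python 3.11.15.

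Members, lists and tests were chosen with earlier results of these data known. There were 48 lists with 904 entries, 830 of them measured. A list was described by its counts and median beside those of all genes, without a set test. Named genes were the 15 per direction with the largest smallest culture difference among called genes with no overlap of arrays, the 10 per direction most even across cultures at 2 or more on the log2 scale, the 10 with opposite signs, the 5 largest rises and falls called in each list, and fixed fat cell, sex-linked, pluripotency and epididymis genes. Any other gene named was picked with its values in view. Alternatives were quantile normalization, centring on medians or reference genes, a filter on dim genes, the mean of probe sets, a replicate block, array weights, another variance model, a test against a 2-fold change, the 9 cultured arrays as 1 group, each culture as 1 sample, and leaving out each culture or array.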

Additional observations from a re-analysis of the deposited data

Results flagged for a closer look

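Among the 157 genes whose cultures were called in opposite directions from eWAT, at least 2-fold each way, the 10 with the widest opposition are given here. They were chosen for that, so the difference among the cultures, called in all 10 by the F test of the limma fit, is a description. In each of them 3T3-L1 adipocytes were below eWAT and PMEF adipocytes above it. The range over the 3 culture differences, on the log2 scale, was 7.49 for Sfrp1, a Wnt inhibitor, 6.12 for Igfbp3, a binding protein of insulin-like growth factors, and 5.53 for Gpc3, a cell surface proteoglycan. Among imprinted genes it was 5.71 for Grb10, 5.70 for Peg3, 5.18 for Meg3 and 4.89 for Plagl1. It was 5.88 for Lum, a proteoglycan of collagen matrix, 5.65 for Ldb2, a cofactor of LIM proteins, and 4.85 for Emb, a cell adhesion protein. The adjusted p among cultures ran from 1.75e-14 for Grb10 to 1.81e-10 for Emb. ES adipocytes lay above eWAT in 8 of the 10 genes, and below it in Ldb2 and Lum, at -0.24 and -0.59.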

How the results depend on the processing

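The counts depended on the unit of replication and on the threshold. Taking the 9 cultured arrays as 1 group gave 2158 genes higher and 2263 lower, and taking each culture as 1 sample gave 760 and 1237, of which 759 and 1234 did not overlap between arrays. Of 399 named genes 235 lost the call in the latter test, and none changed direction in either. Testing against a 2-fold change gave 334 higher and 813 lower. The share of called genes that were higher, 59.7% as reported, was 69.1% with arrays centred on medians (8162 higher, 3653 lower), 50.6% with centring on reference genes (5186 and 5068), 48.8% with 1 cultured group and 38.1% with each culture as 1 sample. Those centrings moved all genes by 0.07 and -0.06. Leaving out 1 array gave 5690 to 6564 genes higher, 3920 to 4317 lower, 2431 to 3047 and 2266 to 2630 not overlapping, 131 to 142 and 696 to 754 at 2-fold in every culture, and 11131 to 12221 that differed among cultures. Without 3T3-L1, PMEF or ES adipocytes the genes 2-fold higher in every remaining culture were 339, 356 and 203, and without PMEF 4305 higher genes did not overlap.

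Some named genes whose cultures lay on both sides of eWAT changed sign. Without 3T3-L1 they were -0.10 for Cebpb, 0.43 for Col14a1, 0.0896 for Col15a1, 0.25 for Col3a1, -0.13 for Cxcl1, -0.0238 for Dbt, 1.56 for Grb10, 0.97 for Ldb2, 0.71 for Lum and -5.5e-05 for Myc. Without PMEF they were -0.27 for Col8a1, -0.55 for Emb, -0.32 for Gpc3, -0.22 for Hc, -0.40 for Meg3, -0.0152 for Metrnl, 0.0146 for Ndufb8, -0.37 for Pdgfra, -1.06 for Peg3, 0.29 for Pfkp, -0.44 for Plagl1, -0.25 for Thy1 and -0.0296 for Tpm2. Without ES they were -0.0276 for Dbt, -0.46 for Gpc3, 0.61 for Hprt, -0.67 for Peg3, 0.0214 for Sc5d, 0.26 for Sgk1, -0.25 for Slc16a3 and -0.00853 for Snap25. Peg3 was at -0.33 without eWAT replicate 1 and at 0.26 without eWAT replicate 3.

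The labels state no pairing of samples by replicate number. Residuals of same-numbered arrays of different groups correlated at -0.14 to 0.11, and those of other-numbered arrays at -0.11 to 0.15. Pairing need not leave such a correlation, so these values cannot exclude it. With the replicate block 6252 genes were higher and 4250 lower. No measure of signal over background was available, so no limit of detection is given for dim genes.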
